A study of Zea mays with 6 samples.

Results

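In the expression tables of developing maize (Zea mays) kernels, each row is a transcript model named only by a locus, that is a chromosome, a start and an end. Some loci are named by several rows with different values. Rows were chosen by 2 criteria: their locus occurred in at least 2 rows, and the plain mean of their 6 RPKM values was below 1000; rows of chromosome 4 were left out. RPKM relates the reads of a row to the length of its model and to the depth of its library, which puts rows of different length on a common scale. How well that scale holds for very short models was not tested. The choice took 7946 rows at 3796 loci, out of 41406 rows at 36762 loci. Repeated loci held 8883 rows at 4239 loci in all; 923 of these rows were on chromosome 4, and another 14 had a mean of 1000 RPKM or more. Because the mean level chose the rows, levels are given below as a description, without a test.

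The study compared 3 libraries of wild-type (WT) kernels with 3 libraries of kernels homozygous for a mutant allele of zmbzip22, all collected 15 days after pollination. Per the labels each library was made from total RNA of pooled kernels. The labels name neither the allele nor the inbred line, and nothing in them says that libraries came from separate ears. The spread behind each p-value is therefore that of these 6 libraries and may be technical. Barcodes of 6 bases marked replicates 1 and 2 of each genotype, and barcodes of 8 bases marked replicate 3 of each, so barcode length is a possible batch that is balanced over the genotypes. The comparison asks which transcripts of the kernel differ when zmbzip22 is mutated; here it is put to rows that share a locus.

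A stretch of genome can hold several transcript models for different reasons. Genes can overlap, also on opposite strands, a gene can lie inside an intron of another, and close neighbours can be joined in 1 stretch when models are assembled from reads. A bZIP factor binds DNA as a dimer through a leucine zipper next to a basic region, and in maize endosperm, the filling tissue of the kernel, bZIP22 is known as an activator of a zein storage protein gene. The files pair no locus with a gene, so no row can be given a function here, and loci are named by their B73 RefGen_v3 coordinates. Whether a position is exonic, intronic or untranslated was not analysed here, nor was strand. No source used here says how reads that fit several models were assigned, so values of overlapping or near-identical models are uncertain.

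RPKM values came out as exact ratios of whole numbers, which gave the read count of each row, the length of its model and the read total of each library. The totals were 15287996, 11329983 and 15533529 reads in WT replicates 1, 2 and 3, and 14785269, 15878131 and 14347675 reads in the mutant replicates. The counts are the smallest whole numbers that give the values, so a factor common to all 6 counts and the length would be lost. At these depths 3 reads on a model of 1 kb were worth between 0.189 and 0.265 RPKM, a floor for counting error alone. In what follows, scaled RPKM is RPKM divided by a median-of-ratios factor of the library, between 0.948 and 1.03. Of the summed RPKM, the chosen rows took 8.73, 9.14 and 10.3% in the WT libraries (replicates 1, 2 and 3, an order kept throughout) and 9.47, 9.56 and 9.998% in those of the mutant. The WT mean was 9.38% ± 0.794 and the mutant mean 9.68% ± 0.282 (SD, n = 3; two-sided exact permutation test, p = 0.5, smallest possible 0.1). The difference of 0.296 percentage points was smaller than the WT SD and slightly larger than the mutant SD. The libraries of the genotypes overlapped. Without WT replicate 1 the difference, mutant minus WT, turned from 0.296 to -0.0277 percentage points.

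Shared loci were spread over the genome rather than gathered on a chromosome. On the chromosomes analysed, the chosen rows made up 18.6% (chromosome 10) to 22.8% (chromosome 5) of all rows. The mitochondrial genome held 5 chosen rows at 2 loci, and an unplaced scaffold held 2. Most loci were shared by a pair of rows: 3476 loci had 2 chosen rows, 278 had 3, 30 had 4 and 7 had 5. At 5 loci a single row was chosen because its partner had a mean of 1000 RPKM or more. Loci with shared rows were wider than the others, with a median width of 4447 bases (quartiles 2483.5 and 7818.5) against 2567 bases (quartiles 1244 and 4676) for single-row loci. Here and below, single-row loci include those of chromosome 4 and rows of 1000 RPKM or more, which the choice left out. The models of the chosen rows, in contrast, were shorter. Among rows with at least 20 reads in a library, the median model length was 826 bases over 5143 chosen rows and 1035.5 bases over 20148 rows of single-row loci. The model covered a median of 17.0% of the width of a shared locus and 31.1% of the width of a single-row locus.

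The models of a locus rarely filled it. Of 1557 loci with 2 chosen rows that both reached 20 reads in a library, the summed lengths of both models exceeded the width of the locus in 83 (5.33%), where the models must overlap on the genome. In the median locus both models together covered 36.6% of the width. Model lengths were equal in 3 of these loci and differed in the others. Whether the models of the other loci overlap cannot be read from lengths.

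The rows covered the range of kernel transcript levels below the limit. Their median was 3.61 RPKM (quartiles 0.854 and 12.6), against 2.70 RPKM (quartiles 0.521 and 11.2) for single-row loci, which were not cut at the limit. Of the 7946 rows, 149 were at 0 in every library, 2018 lay above 0 and under 1 RPKM, 3427 between 1 and 10, 2115 between 10 and 100 and 237 between 100 and 1000. A further limit is depth: 824 rows had at most 3 reads in every library. The last rows inside the limit had plain means of 769 (chromosome 8, 133996632 to 133998309), 849 (chromosome 2, 21389640 to 21391610) and 936 RPKM (chromosome 6, 4596811 to 4616642). The first rows outside it had 1044 (chromosome 3, 17614008 to 17614990), 1094 and 1176 RPKM (chromosome 1, 94688137 to 94693847). The row at 1094 RPKM and the row at 849 RPKM are partners of the same chromosome 2 locus, so the limit separated them.

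Partner rows were mostly unequal. Over 3789 loci with at least 2 chosen rows and any reads, the highest row held a median of 74.2% of the summed scaled RPKM of its locus (quartiles 60.0 and 90.2%). It held at least 90% in 959 loci (25.3%) and at least 99% in 270 loci (7.13%). The median was alike in every library, from 74.5 to 75.6% (SD 0.464 over 6 libraries). In 3351 loci of 2 rows that both had reads, the higher row stood at 2.74 times the lower in the median. The ratio was below 1.5 in 839 of them (25.0%), at least 10 in 722 (21.5%) and at least 100 in 139 (4.15%). In another 123 loci of 2 rows the lower row was at 0 in all 6 libraries while the higher was not.

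**Figure D1:**
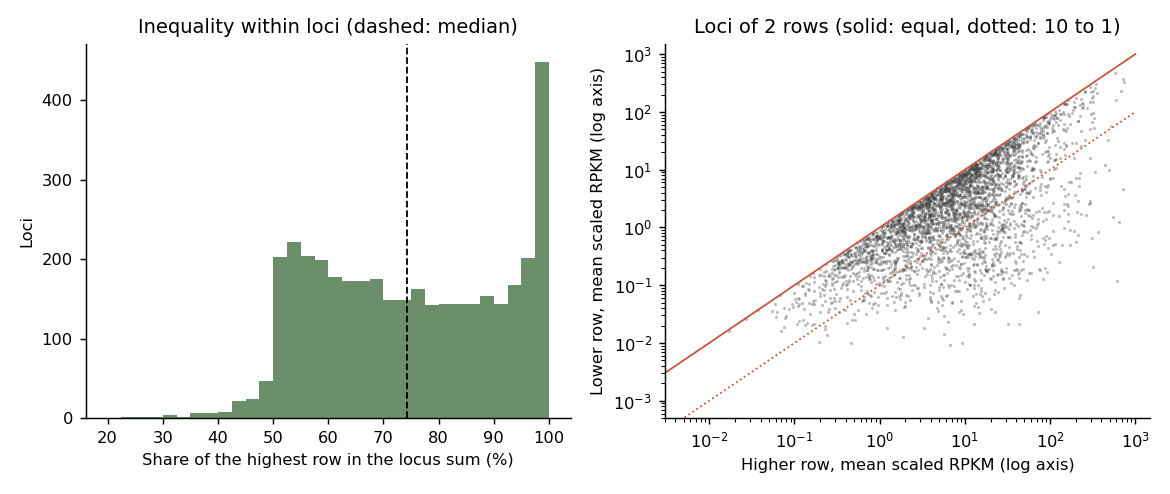
The left panel shows how many loci (vertical axis) had a given share of the locus sum in their highest row (horizontal axis, in percent), with the median of 74.2% dashed; the tallest bar is the last, near 100%. The right panel plots the mean scaled RPKM of the lower row against the higher row for loci of 2 rows, both on log axes, with lines for equal rows (solid) and for 10 to 1 (dotted); rows at 0 cannot be drawn.

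In many loci the partners were both present in the kernel. Of 3476 loci with 2 chosen rows, both rows had a mean of at least 1 scaled RPKM in 2058, only the higher row did in 939, and neither did in 479. The order of the partners was mostly stable where both reached 1 scaled RPKM: the same row was higher in all 6 libraries in 1501 of the 2058 loci (72.9%). Of the 1557 loci with 20 reads for both models, the higher row had the longer model in 929 (59.7%), and the median lengths were 799 bases for the higher and 559 bases for the lower row.

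The most abundant pairs of partners held both rows far above the median level. At chromosome 9, 102483300 to 102485242, the higher row (model of 745 bases) had 574 ± 92.9 scaled RPKM in WT libraries and 580 ± 55.7 in mutant libraries (SD, n = 3). Its partner (579 bases) had 534, 435 and 428 scaled RPKM in WT and 438, 505 and 480 in the mutant, so both rows overlapped between genotypes. At chromosome 5, 82479946 to 82483338, the higher row (1599 bases) had 687, 661 and 693 in WT and 703, 804 and 767 in the mutant. Each mutant library was above each WT library, though the row was not called (log2 fold change 0.15, limma, adjusted p = 0.550). Its partner, a model of only 219 bases, had 370, 380 and 295 scaled RPKM in WT and 400, 435 and 338 in the mutant, and its genotypes overlapped. At chromosome 3, 146636540 to 146638755, the rows had models of 295 and 327 bases, and the higher row held 69.3% of the locus. The higher ranged from 624 to 877 scaled RPKM and the lower from 290 to 377 over the 6 libraries, with overlapping genotypes.

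The 7 loci with 5 chosen rows were 17655 to 131697 bases wide. A locus of 84530 bases on chromosome 7 (165864403 to 165948932) held 5 rows, of which the highest, a model of 516 bases, had 148, 125 and 130 scaled RPKM in WT and 135, 123 and 145 in the mutant. The next 3 rows ran from 13.0 to 16.1, from 7.67 to 9.31 and from 4.02 to 5.42 scaled RPKM over the 6 libraries, and the last had 0 to 3 reads. The highest row thus held 82.6% of the locus. A locus of 131697 bases on chromosome 5 (33309449 to 33441145) also held 5 rows. Its highest row held 28.1%, the smallest such share among 644 loci whose second row reached 10 scaled RPKM. This share can fall lower at loci with more rows, so the ranking favours those, and the fifth row of this locus had only 4.46 to 5.38 scaled RPKM. Here the first row had 32.3, 41.6 and 39.4 scaled RPKM in WT and 29.3, 33.3 and 45.4 in the mutant. The second had 32.3, 37.1 and 32.8 in WT and 42.7, 36.5 and 25.8 in the mutant, and in 2 mutant libraries it exceeded the first. The next smallest share, 31.6%, was at chromosome 10, 140355565 to 140445720, where the first 3 of 5 rows had 10.6 to 14.1, 12.0 to 13.1 and 9.72 to 10.9 scaled RPKM. The fourth row of that locus had 3.08 to 6.04 scaled RPKM, and the last had 0 to 2 reads. The most unequal of the 644 was at chromosome 7, 172613718 to 172625776, where a model of only 99 bases held 97.3%: it had 445, 513 and 356 scaled RPKM in WT and 452, 511 and 373 in the mutant. Its partner, a model of 1615 bases, stayed between 11.2 and 13.2. In reads the rows were closer, with 543 to 813 for the short model and 202 to 320 for the long one. Next came a locus on chromosome 7, 8051535 to 8065662, where the highest of 4 rows ranged from 346 to 395 scaled RPKM and the second from 12.9 to 16.9.

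Partner rows varied together over libraries to a modest degree. For each pair of the highest row of a locus and another tested row, the log2 values were taken as deviations from their genotype mean and correlated over the 6 libraries. The median correlation over 2505 pairs was 0.167 (quartiles -0.282 and 0.574). Neighbouring rows of different single-row loci, in coordinate order, gave a median of 0.018 over 21580 pairs, and those at most 5 kb apart gave 0.045 over 4570 pairs. Correlations above 0.9 made up 5.19% of partner pairs and 2.48% of neighbours; those below -0.9 made up 1.64 and 2.20%. These are descriptions: all pairs share the same 6 libraries and their depth, and 6 points make single correlations imprecise. With barcode length as a covariate the median of partner pairs was 0.142, and with the 6-base libraries alone it was 0.194.

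The correlation was higher for abundant and for narrow loci. By the level of the lower row, the median was 0.128 under 2 scaled RPKM, 0.115 from 2 to 5, 0.197 from 5 to 10, 0.254 from 10 to 30 and 0.399 from 30 upwards. Neighbours of the same level classes had medians of 0.006 to 0.031. By the width of the locus, the median of partner pairs was 0.327 under 2 kb, 0.254 from 2 to 4 kb, 0.085 from 4 to 10 kb and 0.097 in wider loci. Among pairs whose rows both had at least 5 scaled RPKM the same classes gave 0.518, 0.341, 0.165 and 0.178, over 160, 313, 463 and 195 pairs.

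**Figure D2:**
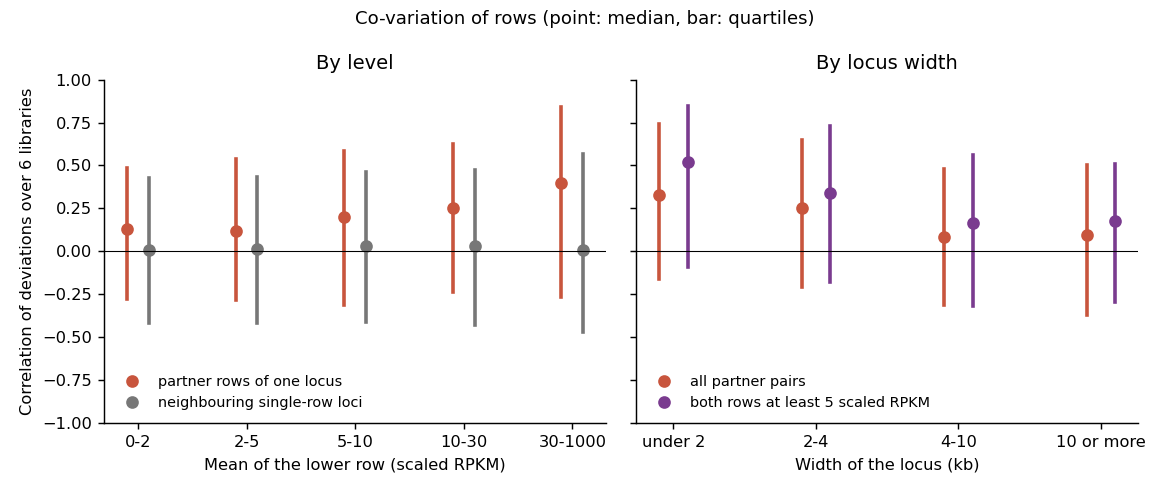
Points are medians and bars run between quartiles of the correlation, over 6 libraries, of log2 deviations from genotype means (vertical axis, no unit). In the left panel partner rows of a locus (red) run from 0.128 and 0.115 in the lowest classes of the lower row to 0.399 in the highest, while neighbouring single-row loci (grey) stay near 0; in the right panel loci under 4 kb lie above wider loci, for all pairs (red) and for pairs of at least 5 scaled RPKM (purple).

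The extremes of this correlation are given among pairs of at least 5 scaled RPKM. Locus K (chromosome 6, 24280539 to 24281904, 1366 bases wide) had the highest, 0.996. Its first row measured 40.5, 54.2 and 119 scaled RPKM in WT and 43.7, 40.6 and 113 in the mutant. Its second measured 37.8, 45.5 and 114 in WT and 38.4, 38.1 and 104 in the mutant. Both rows were thus high in replicate 3 of each genotype, the libraries with 8-base barcodes, and the part of the barcode was not tested beyond a covariate, with which the correlation was 0.964. Locus L (chromosome 1, 279632094 to 279634995) also reached 0.996, with 68.8, 66.0 and 54.2 scaled RPKM in WT and 64.9, 73.7 and 52.4 in the mutant for its first row. Its second row followed with 25.2, 22.9 and 18.5 in WT and 25.7, 30.3 and 20.1 in the mutant; in each genotype replicate 3 was the lowest for both rows.

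At the other end, locus M (chromosome 3, 163786352 to 163794407) had a correlation of -0.997. Its first row, a model of 271 bases, measured 81.9, 77.4 and 96.1 scaled RPKM in WT and 80.5, 73.9 and 88.7 in the mutant. The second, of 1713 bases, measured 74.7, 76.2 and 69.4 in WT and 72.0, 75.3 and 69.3 in the mutant. Both span small ranges, and with RPKM as deposited, without scaling, the correlation was -0.692. Locus N (chromosome 6, 7134992 to 7140529) had -0.991. There the longer model ranged from 12.3 to 15.5 scaled RPKM, while the shorter, of 370 bases, ranged from 8.09 to 15.9 on 36 to 94 reads.

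**Figure D3:**
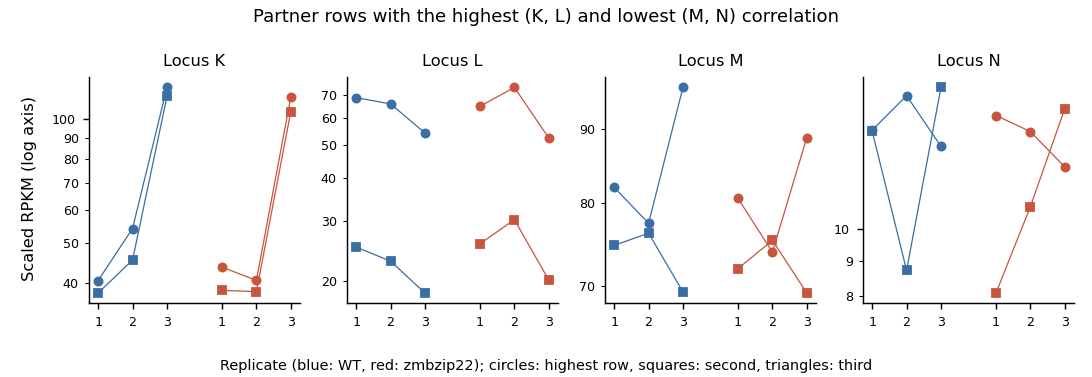
Scaled RPKM (log axis) of both rows of loci K, L, M and N by replicate, WT in blue and zmbzip22 in red, circles for the higher row and squares for the second; lines join libraries of a genotype to show parallel or crossing values and imply no order. The rows of K and L run in parallel, with K highest in both replicate 3 libraries, and those of M and N run against each other.

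The genotypes were compared with limma on log2(scaled RPKM + 1), over all 28163 rows that reached 1 scaled RPKM in 3 or more libraries, and rows with a Benjamini-Hochberg adjusted p below 0.05 over all of them are called. Log2 fold changes on this scale understate changes of low rows. Of the chosen rows 5818 were tested and 39 called (0.670%), where 0.692% of all tested rows were called. In the mutant 23 of them rose (0.395%, against 0.391% of all tested rows) and 16 fell (0.275%, against 0.302%). These shares are near the background, so sharing a locus did not set the rows apart by this count. The genotypes did not overlap in 829 of them (14.2%, against 15.7% of all tested rows). The median log2 fold change was 0.00 for the chosen rows and for all rows. Absolute log2 fold changes of the 39 called rows ran from 0.46 to 2.68, with a median of 1.04. Leaving out a single library left 13 to 21 of the chosen rows called, fewest without WT replicate 1 or WT replicate 2. With barcode length as a covariate 72 were called, and voom on the recovered reads called 73.

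Chromosome 7 held 27 of the 39 called rows (69.2%) but 8.92% of the chosen rows tested. Of the tested rows 5.20% were called there and 0.226% elsewhere. The concentration was not limited to shared loci: of the tested rows outside the choice, 3.72% were called on chromosome 7 and 0.450% elsewhere, and whether the shares differ between these sets was not tested. Outside chromosome 7, 4 called rows were on chromosome 2, 3 on chromosome 3, 2 each on chromosomes 8 and 10, and 1 on chromosome 6. The called rows lay at 31 loci, and 25 of the 39 were the highest row of theirs.

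Where partners were both called, they moved the same way. At 7 loci 2 or more rows were called, with 2 rows at 6 of them and 3 at the other, and in all 7 the direction was shared. Whether partners counted some of the same reads, as overlapping models may, was not tested. Rows called in opposite directions were found at 0 loci by limma, and at 0 loci in each of the 14 alternative fits, voom included. Those fits reuse the same libraries and are no independent support. Without 1 library only 1 to 4 loci had 2 or more rows called in the same direction, so few loci could have shown opposite calls. At an unadjusted p below 0.05 (limma), 46 loci had 2 or more rows that pointed the same way and 1 locus had rows that pointed opposite ways. This threshold was passed by 9.18% of the chosen rows and by 9.83% of all tested rows. No such count for neighbouring loci is given here. Of the 24 loci with a single called row, 7 had no tested partner. The 19 tested partners at the rest included 12 with a fold change in the same direction as the called row and 7 in the opposite. In 6 of the 12 and in 1 of the 7 the genotypes of the partner did not overlap, where 15.7% of all tested rows did not. The 19 partners were chosen through called rows, most of them on chromosome 7, so that share is only a rough background. The 7 loci were 973 to 7126 bases wide with a median of 2120, and the 24 had a median width of 4318.

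Over all tested pairs, the fold changes of partners had the same sign in 59.5% of 2505 pairs, against 51.6% of neighbours in coordinate order and 53.1% of neighbours at most 5 kb apart. Both rows of a pair were measured in the same libraries, which their fold changes share. In 89 pairs neither row overlapped between genotypes, and in 68 of these (76.4%) both rows differed the same way. Among neighbours this was so in 350 of 633 pairs (55.3%), and within 5 kb in 86 of 133 (64.7%). The share of pairs with the same sign was larger at higher levels of the lower row, from 53.3% under 2 scaled RPKM over 57.8, 62.8 and 63.4% to 68.4% from 30 upwards. Neighbours of the same level classes had shares of 51.0 to 53.1%. In the narrowest loci, under 2 kb, rows of 19 pairs without overlap in either row differed the same way and of 0 pairs opposite ways. The counts were 25 and 6 from 2 to 4 kb, 17 and 8 from 4 to 10 kb, and 7 and 7 in wider loci. On chromosome 7 the fold changes had the same sign in 68.3% of 224 pairs, and elsewhere in 58.7% of 2281. Neighbours gave 51.9% on chromosome 7 and 51.5% elsewhere. Of the 89 pairs, 29 were on chromosome 7, and 25 of these differed the same way. Elsewhere 43 of 60 did (71.7%), against 54.9% of such neighbours.

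**Figure D4:**
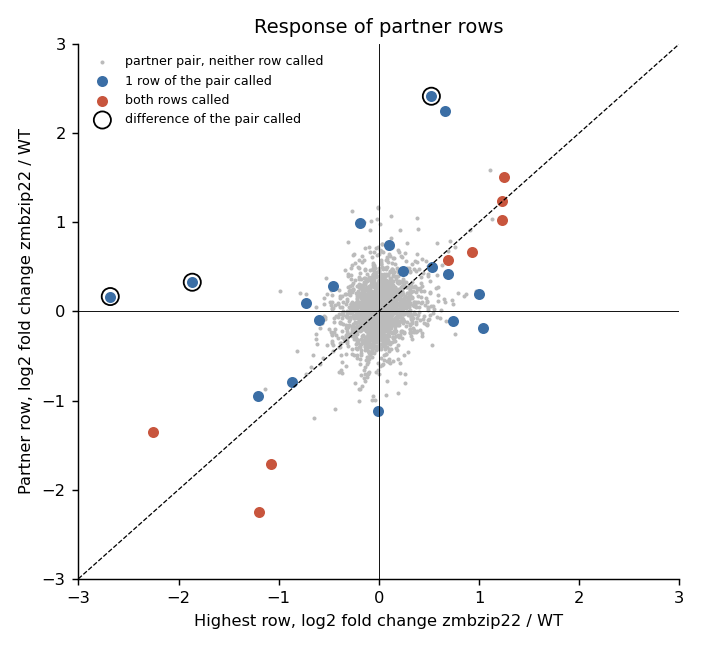
Each point is a pair of partner rows, with the log2 fold change (zmbzip22 against WT, log2 of scaled RPKM + 1) of the highest row on the horizontal and of its partner on the vertical axis; the dashed line marks equal responses. Pairs with both rows called (red) lie in the quadrants of shared sign, and circles mark the 3 pairs whose difference was called, which have 1 called row each (blue).

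Loci A to G are those with several called rows. Locus A (chromosome 7, 137198687 to 137201670) was nearly silent in the mutant. Its first row (1039 bases) measured 4.38, 6.30 and 4.77 scaled RPKM in WT and 0.320, 0.479 and 0.0654 in the mutant, on 66 to 79 and on 1 to 8 reads. Every mutant library lay far below every WT library, and the mean fell 17.9-fold, from 5.15 ± 1.01 to 0.288 ± 0.209 (SD, n = 3; log2 fold change -2.26, SE 0.189, limma, adjusted p = 0.00365). Its partner (567 bases) measured 2.92, 2.69 and 2.66 in WT and 0.235, 0.878 and 0.359 in the mutant. It fell too, by 1.36 on the log2 scale (limma, adjusted p = 0.0317). That second call was lost with a pseudocount of 0.1 and without any library but zmbzip22 replicate 2 (limma, adjusted p of 0.0696 and of 0.0954 to 0.147).

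Locus C (chromosome 3, 141518566 to 141520563) fell as well, most in its lower row. The higher row (307 bases) measured 29.2, 26.6 and 22.1 scaled RPKM in WT and 8.89, 12.6 and 10.8 in the mutant, 2.41-fold lower (log2 fold change -1.20, SE 0.146, limma, adjusted p = 0.0201). The lower row (492 bases) measured 8.55, 9.29 and 10.5 in WT and 1.08, 1.39 and 1.10 in the mutant, 7.91-fold lower (log2 fold change -2.25, SE 0.132, limma, adjusted p = 0.00118). Neither row overlapped between genotypes. The difference between these responses, 1.05, was not called (limma, adjusted p = 0.323). The higher row lost its call in 4 of the fits without a library, those without WT replicate 1, WT replicate 2, zmbzip22 replicate 1 and zmbzip22 replicate 3 (limma, adjusted p of 0.0674 to 0.111).

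Locus D (chromosome 7, 18954725 to 18955697), only 973 bases wide, held the most abundant of the 39 called rows as its higher row. The higher row (352 bases) measured 725, 719 and 683 scaled RPKM in WT and 370, 342 and 298 in the mutant. Its mean fell from 709 ± 22.6 to 336 ± 36.4 (SD, n = 3; log2 fold change -1.08, limma, adjusted p = 0.00365). The lower row (159 bases) measured 91.5, 72.2 and 97.1 in WT and 28.9, 23.5 and 24.8 in the mutant, and fell by 1.71 on the log2 scale (limma, adjusted p = 0.00264). Both rows were separated between genotypes in every library, and their difference in response of 0.63 was not called (limma, adjusted p = 0.373).

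At locus B (chromosome 7, 8223183 to 8225302) all 3 rows rose. The first (526 bases) went from 15.3, 15.5 and 14.6 scaled RPKM in WT to 42.1, 39.3 and 30.2 in the mutant, 2.46 times as much (log2 fold change 1.23, limma, adjusted p = 0.0102). The second (300 bases) went from 5.98, 6.57 and 5.65 to 19.1, 14.9 and 13.4 (log2 fold change 1.24, limma, adjusted p = 0.0144). These fold changes were nearly equal, and over libraries the first and second rows had a correlation of 0.846. The third row (213 bases) rested on 2 to 3 reads in WT and 7 to 11 in the mutant, with a log2 fold change of 1.02 (limma, adjusted p = 0.0452). Its call was kept in 2 of 13 alternatives and lost without each single library (limma, adjusted p of 0.105 to 0.168). The calls of the first and second rows were lost without WT replicate 1 or WT replicate 2, and that of the second also without WT replicate 3 or zmbzip22 replicate 2 (limma, adjusted p of 0.057 to 0.0892).

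Loci E, F and G rose too. Locus E (chromosome 7, 125417690 to 125419365) was low in WT: its first row (1179 bases) measured 1.11, 1.14 and 1.17 scaled RPKM there and 4.40, 3.96 and 3.98 in the mutant (log2 fold change 1.25, limma, adjusted p = 0.00895). Its second row (541 bases) had 1 to 3 reads in WT libraries and 15 to 29 in mutant libraries (log2 fold change 1.50, limma, adjusted p = 0.0275). The summed lengths of the models at locus E exceed its width of 1676 bases, so the models must overlap. Their reads may be shared, and the calls of both rows may not be separate observations. Locus F (chromosome 2, 218011744 to 218014457) was abundant, with models of 1345 and 1233 bases. Its first row measured 70.3, 67.2 and 59.1 in WT and 142, 110 and 127 in the mutant (log2 fold change 0.93, limma, adjusted p = 0.0190). Its second measured 48.8, 44.9 and 46.7 in WT and 83.3, 68.0 and 74.2 in the mutant (log2 fold change 0.67, limma, adjusted p = 0.0244). Locus G (chromosome 7, 111685371 to 111692496) held 3 rows that were all separated between genotypes. The first went from 16.8, 17.0 and 15.8 to 28.1, 27.7 and 26.3 (log2 fold change 0.69, limma, adjusted p = 0.0113), and the second from 12.1, 12.7 and 12.5 to 19.4, 18.2 and 19.5 (log2 fold change 0.58, limma, adjusted p = 0.0247). The third had 4.92, 5.20 and 5.37 in WT and 7.28, 6.99 and 7.56 in the mutant and was not called (limma, adjusted p = 0.152). Each of the 6 calls at loci E, F and G was lost in 3 to 6 of the 6 fits without a single library, with limma adjusted p of 0.0513 to 0.131; each was lost without WT replicate 1 and without WT replicate 2, and the omission of each other library ended at least 1 of them.

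**Figure D5:**
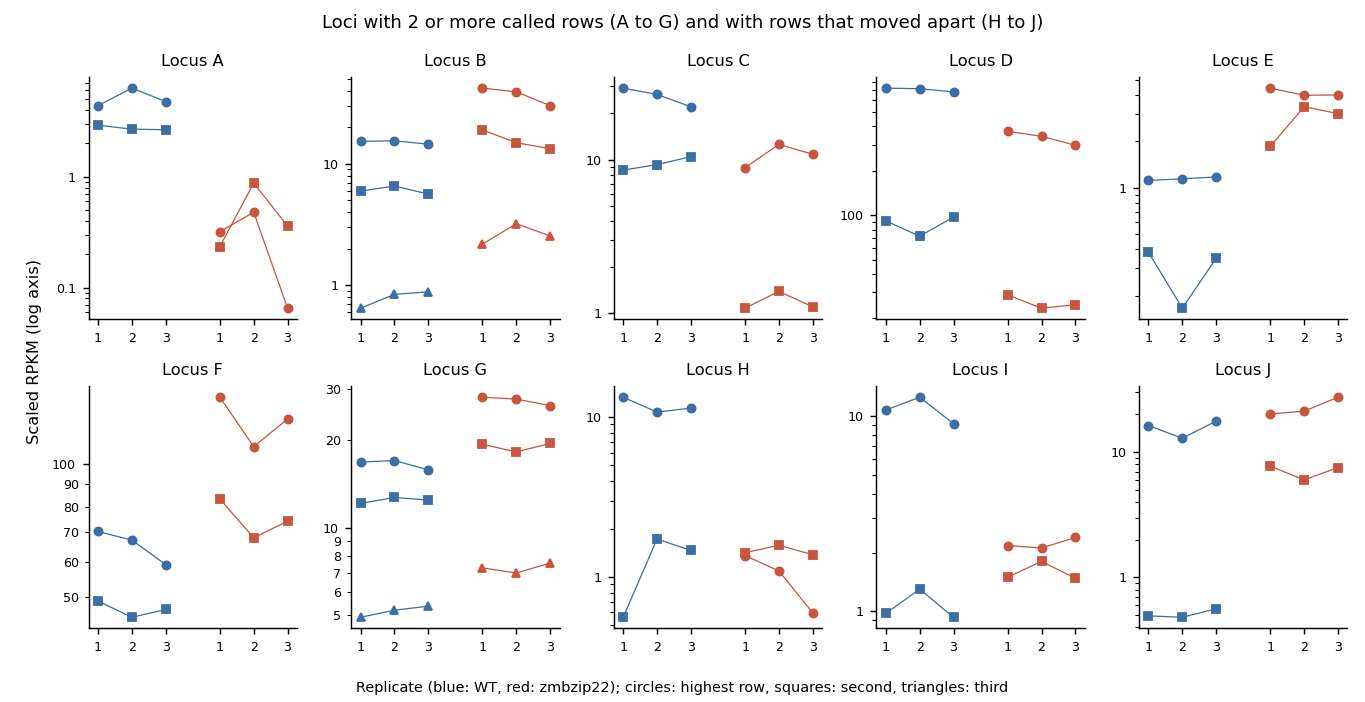
Scaled RPKM (log axis) of the rows of loci A to J by replicate, WT in blue and zmbzip22 in red, with circles for the highest row, squares for the second and triangles for the third; untested rows are not drawn, and lines only join libraries of a genotype. In A to G the rows of a locus shift in the same direction between genotypes, not always equally far (2.41-fold and 7.91-fold lower at C). In H, I and J 1 row shifts far more than its partner.

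Few pairs of partners were called for a difference in response. With 3 libraries per genotype, a pair that was not called is not shown to move alike. The difference in response was tested with limma over all 2803 pairs of tested rows. In each library log2(scaled RPKM + 1) of the partner was subtracted from that of the highest row. The added 1 shrinks changes of low rows more, so this difference depends on level. At locus B the mean of the third row rose 3.35-fold and that of the first 2.46-fold, yet their difference was 0.21. The difference in response was called in 3 of the 2505 chosen pairs (0.120%), where 0.107% of all pairs were called. Those 3 were also the only calls among all pairs. An unadjusted p below 0.05 (limma) was found in 140 of the chosen pairs (5.59%), a share near what this threshold passes where no pair differs. The genotypes did not overlap in this difference in 290 pairs (11.6%), against 11.5% of all pairs. The median absolute difference was 0.16 on the log2 scale, 90% of pairs were below 0.48, and 22 pairs reached 1. In each called pair a single row of the locus was called and its partner was not.

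Locus H (chromosome 3, 141520875 to 141524948) begins 311 bases beyond the end of locus C. Its first row (342 bases) measured 13.3, 10.7 and 11.4 scaled RPKM in WT and 1.36, 1.09 and 0.596 in the mutant, on 41 to 66 and on 3 to 7 reads. This was an 11.6-fold fall of the mean (log2 fold change -2.68, SE 0.174, limma, adjusted p = 0.00174). With a pseudocount of 1 its log2 fall exceeded that of the first row of locus A, but with a pseudocount of 0.1 the order turned, with -3.48 here and -3.92 at locus A. Its partner (985 bases) measured 0.560, 1.73 and 1.47 in WT and 1.42, 1.58 and 1.38 in the mutant, with overlapping genotypes (log2 fold change 0.17, limma, adjusted p = 0.896). The difference between the responses was -2.85 (SE 0.318, limma, adjusted p = 0.0120). Without zmbzip22 replicate 1, 2 or 3 the difference was no longer called (limma, adjusted p of 0.0571 to 0.0877), nor was it with a pseudocount of 0.1 (limma, adjusted p = 0.0652).

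Locus I (chromosome 2, 58003494 to 58033733) is 30240 bases wide. Its first row (796 bases) measured 10.7, 12.5 and 9.15 scaled RPKM in WT and 2.17, 2.11 and 2.39 in the mutant, 4.85-fold lower (log2 fold change -1.86, SE 0.136, limma, adjusted p = 0.00260). The partner (2760 bases) measured 0.975, 1.30 and 0.932 in WT and 1.49, 1.80 and 1.48 in the mutant. Its mutant libraries all lay above its WT libraries, with a log2 fold change of 0.33 that was not called (limma, adjusted p = 0.554). The difference was -2.19 (SE 0.216, limma, adjusted p = 0.00788) and was lost without zmbzip22 replicate 1 or 2 (limma, adjusted p of 0.063 and 0.0877). Its remaining row had 1 to 4 reads per library and was not tested.

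Locus J (chromosome 7, 135671925 to 135673311) moved apart the other way, through a rise of its lower row. That row (559 bases) measured 0.494, 0.481 and 0.561 scaled RPKM in WT and 7.74, 6.01 and 7.53 in the mutant, on 3 to 5 and on 54 to 65 reads. Its mean rose 13.9-fold (log2 fold change 2.41, SE 0.142, limma, adjusted p = 0.00118). The higher row (507 bases) measured 16.3, 12.9 and 17.7 in WT and 20.2, 21.2 and 27.5 in the mutant. These libraries did not overlap either, and the row was not called (log2 fold change 0.52, limma, adjusted p = 0.255). The difference of -1.89 (SE 0.236, limma, adjusted p = 0.0185) was kept without WT replicate 2 but lost without each other library (limma, adjusted p of 0.0582 to 0.163). With the replicate block its adjusted p was 0.0566.

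A locus 8798 bases before J, at chromosome 7, 135661742 to 135663126, had models of the same 2 lengths, 507 and 559 bases, and nearly the same width, 1385 bases against 1387. Its row of 559 bases measured 0.864, 0.481 and 0.337 scaled RPKM in WT and 6.07, 5.68 and 7.41 in the mutant, 11.4 times as much (log2 fold change 2.25, SE 0.175, limma, adjusted p = 0.00271). Its row of 507 bases measured 3.81, 3.54 and 4.95 in WT and 5.91, 6.01 and 9.51 in the mutant, again separated and not called (limma, adjusted p = 0.282). The difference between these rows, -1.59, was not called (limma, adjusted p = 0.138). The sequences of both loci were not compared here, and if they are near-identical copies the reads of both may be shared.

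The other large rise was at chromosome 7, 127603646 to 127612520. Its first row (760 bases) went from 3.81, 5.19 and 5.53 scaled RPKM in WT to 18.2, 18.7 and 19.7 in the mutant, 3.89 times as much (log2 fold change 1.78, SE 0.131, limma, adjusted p = 0.00262). Its partner (1245 bases) measured 0.222, 0.504 and 0.756 in WT and 0.802, 1.20 and 0.873 in the mutant and was too low to be tested. The other 19 called rows comprised 11 that rose, by 0.46 to 1.12 on the log2 scale, and 8 with log2 fold changes of -1.20 to -0.46; 13 of them were on chromosome 7.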

How the data were processed

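The authors deposited 1 table of RPKM per library (unit per the file headers), with rows named by locus. Tools named in the submitters' processing notes are TopHat and SAMtools 0.1.19, with the genome build B73 RefGen_v3. No source used here names the annotation, the strand setting, the treatment of reads with several alignments or the RPKM program. The row lists of the 6 tables were in the same order, which joined partner rows across libraries. Of 41406 rows 858 were at 0 in all libraries.

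Each RPKM value was written as a fraction with a relative tolerance of 1e-13. For all 40548 rows above 0 a whole read count and a common model length were found in the libraries, and in 40547 the model was no longer than its locus. All 5 ratios of libraries gave the same total for WT replicate 1. These totals set the depth, and the rows held 99.6 to 99.7% of them.

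RPKM values are not counts, so limma 3.58.1 (R 4.3.3; Python 3.11.15) was used, two-sided and without a covariate, on all 6 libraries with trended and robust moderation. The pair test fitted the difference of log2(scaled RPKM + 1) between the highest row and each other tested row, with chromosome 4 and rows of 1000 RPKM or more kept in both fits. Both fits were also run on simulated reads, drawn independently for each row and library at a fixed dispersion and without a batch. That run does not show how the fits perform where libraries share a batch or models share reads. Alternatives were RPKM without scaling, a pseudocount of 0.1, no filter, a filter of 5 scaled RPKM, barcode length as a covariate, a replicate block, replicates 1 and 2 only, and leaving out each library. Limma voom on the recovered reads, the share of recovered reads and neighbours in coordinate order were added after the data were seen.

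Rows, lists and rules were chosen with earlier results of these data known. The named loci are the 2 with the most rows (7 tied at 5 rows, and the highest sums were taken) and the 3 with the highest second row. Among loci with a second row of at least 10 scaled RPKM, the 2 smallest and 2 largest shares of the highest row were also named. They are also the 5 largest rises and 5 largest falls with separated genotypes and at least 5 scaled RPKM in the higher genotype, loci with several called rows, called pairs, the 2 highest and 2 lowest correlations of rows of at least 5 scaled RPKM, and 3 rows on either side of the limit. The gene table used here belongs to another assembly and matched 0 loci, so no gene name, sequence or marker list was used, and the zmbzip22 row was not located to check the labels.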

Additional observations from a re-analysis of the deposited data

How the results depend on the processing

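With all libraries 23 rows were called higher and 16 lower, 7 loci had several rows called in the same direction, and 3 pairs were called. With barcode length as a covariate the counts were 40, 32, 12 and 4; replicates 1 and 2 alone gave 7, 10, 2 and 0; voom on recovered reads gave 36, 37, 10 and 7. Leaving out 1 library gave 5 to 9 rows higher, 8 to 12 lower, 1 to 4 loci and 0 to 3 pairs. With a filter of 5 scaled RPKM 1 pair was called. Of the 39 calls, 39 were also made with the barcode covariate, 35 with voom and 13 to 20 without 1 library. The replicate block gave 27 rows higher, 26 lower and 2 pairs, and kept 34 of the 39. Libraries with the same number had correlations of deviations of 0.0496, 0.124 and 0.383, not all above 0.1, so the numbers were not taken as pairs. WT replicates 1 and 2 each correlated better with a mutant library of another number. The replicate 3 libraries also share the 8-base barcode, and their correlations with 6-base libraries of the other genotype were -0.275 to -0.173. Without scaling the split of called rows was 26 higher and 13 lower.

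The median share of the highest row was 74.2%, 61.4% with a filter of 5 scaled RPKM, where fewer low partners remain, and 74.7% with replicates 1 and 2 alone, and 74.1 to 74.5% without 1 library. The median correlation of partner rows was 0.167, 0.254 with the filter of 5, 0.227 with the replicate block, and 0.167 to 0.196 without 1 library. The summed share differed by 0.296 percentage points between genotypes, and by -0.0277 without WT replicate 1 to 0.739 without WT replicate 3. Some alternatives had fewer libraries or rows in the fit, and the cause of these changes was not tested. Of the 23 called rows and pairs that are named, 0 turned direction in 315 fits under alternatives. They were chosen as calls from these same libraries, so this is no independent support for their direction. Many did lose their call: 8 to 12 of the 23 in each fit without 1 library, and 12 with replicates 1 and 2 alone. Rows with a handful of reads in a genotype, as at loci A, B, E and J, are limited by depth.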
